A study of Caenorhabditis elegans with 12 samples.

Results

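Cohesin is a ring-shaped protein complex that encloses DNA, holds sister chromatids together until cell division and forms chromatin loops between divisions. SCC-1 is the kleisin subunit that closes the ring in dividing somatic cells. In vertebrates many cohesin sites coincide with the insulator protein CTCF, which C. elegans lacks. Condensin, a related ring complex, is known for dosage compensation of the worm X Chromosome. The 1115 SCC-1 binding sites described here are all peaks of the SCC-1 list and make up 14.8% of the 7558 peaks in 6 lists. Positions are those of the ce10 assembly, counted from 1.

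The study mapped 6 proteins by ChIP-seq, in which chromatin is fixed and the DNA attached to a protein is pulled down with its antibody for sequencing. Beside SCC-1, these were the DNA-binding transcription factor BLMP-1, the histone demethylase JMJD-2, SIN-3, on which histone deacetylase complexes assemble, the topoisomerase TOP-2, which passes DNA strands through each other, and the chromatin protein ZFP-1. All 12 samples, 2 replicate immunoprecipitations per protein, came from the wild-type strain N2 at the third larval stage, L3, grown in synchronized liquid culture with no mutation or treatment. The authors combined the replicates into 1 list per protein, with positions only. Each sample pooled many whole larvae, and peak positions offer no marker with which to assign a site to a tissue. Peak height, read depth and the spread between replicates are not part of the lists. Tests and intervals below therefore cover counting error over peaks, neighboring peaks may not be independent, and a count of peaks also depends on how many sites passed the authors' threshold for each protein. Where the other 5 lists are pooled, a site bound by several proteins counts once for each of them. Of the SCC-1 peaks, 56.8% share bases with a peak of those lists. The 2 sides of such a test are therefore not separate, independent units, and its p-values are approximate.

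SCC-1 peaks were sparse on the X Chromosome, and Chromosome IV held a larger share of them than of the other lists' pooled peaks. There were 95 peaks on X, 5.37 per Mb, and 1020 on the 5 autosomes, 12.4 per Mb. Among autosomes the density was 15.1 per Mb on I (exact Poisson 95% interval 13.2 to 17.2), 13.9 on III, 13.8 on IV, 12.6 on II and 7.99 on V (6.82 to 9.30). The intervals of I, III and IV overlapped, whereas V and X (4.35 to 6.57) lay below the other 4 chromosomes and did not overlap each other. Chromosome IV held 21.6% of SCC-1 peaks (241 of 1115, exact Clopper-Pearson 95% interval 19.2% to 24.2%), against 16.8% of the pooled peaks of the other 5 lists (1085 of 6443). This excess of 4.77 percentage points passed the threshold of 0.05 (adjusted p = 0.000438, two-sided Fisher's exact test with Benjamini-Hochberg adjustment over the 6 chromosomes), as did the deficit on X of 8.52% against 16.7% (adjusted p = 1.14e-12, Fisher's exact test). Shares on I, II, III and V differed from those of the other lists by 0.65 to 2.09 percentage points in size and did not pass (adjusted p from 0.157 to 0.580, Fisher's exact test). SIN-3 was the list whose share on X was nearest to that of SCC-1, with 8.34%, while TOP-2 had 25.2% there, BLMP-1 20.8%, ZFP-1 18.7% and JMJD-2 18.1%. On IV, SIN-3 was again nearest, with 18.8% and an interval (17.0% to 20.8%) that overlapped that of SCC-1. ZFP-1 had 16.9% on IV, JMJD-2 16.2%, TOP-2 15.95% and BLMP-1 14.15%.

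When each chromosome was divided into 10 equal bins, numbered from the left end, the fullest bin of any chromosome was bin 2 of IV, with 49 peaks or 28.1 per Mb. It held 20.3% of the SCC-1 peaks of IV and 10.8% of the peaks of the other lists there. Runs of 13 SCC-1 peaks within 27.7 kb and of 7 within 6.31 kb, described below, were part of its 49 peaks. On X, bin 1 at the left end held 21 peaks (22.1%), against 18.9% of SIN-3, 16.9% of JMJD-2, 15.4% of TOP-2, 10.4% of ZFP-1 and 9.31% of BLMP-1 peaks on X, and SCC-1 numbers were lowest in bin 6 with 4 peaks (2.26 per Mb). The emptiest bins of autosomes were bin 9 of V with 7 peaks, bin 9 of II with 8 and bin 2 of V with 9. Over the 5 autosomes together, the count per bin lay between 73 in bin 9 and 124 in bin 7. These bins were picked as extremes and carry no test.

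**Figure D1:**
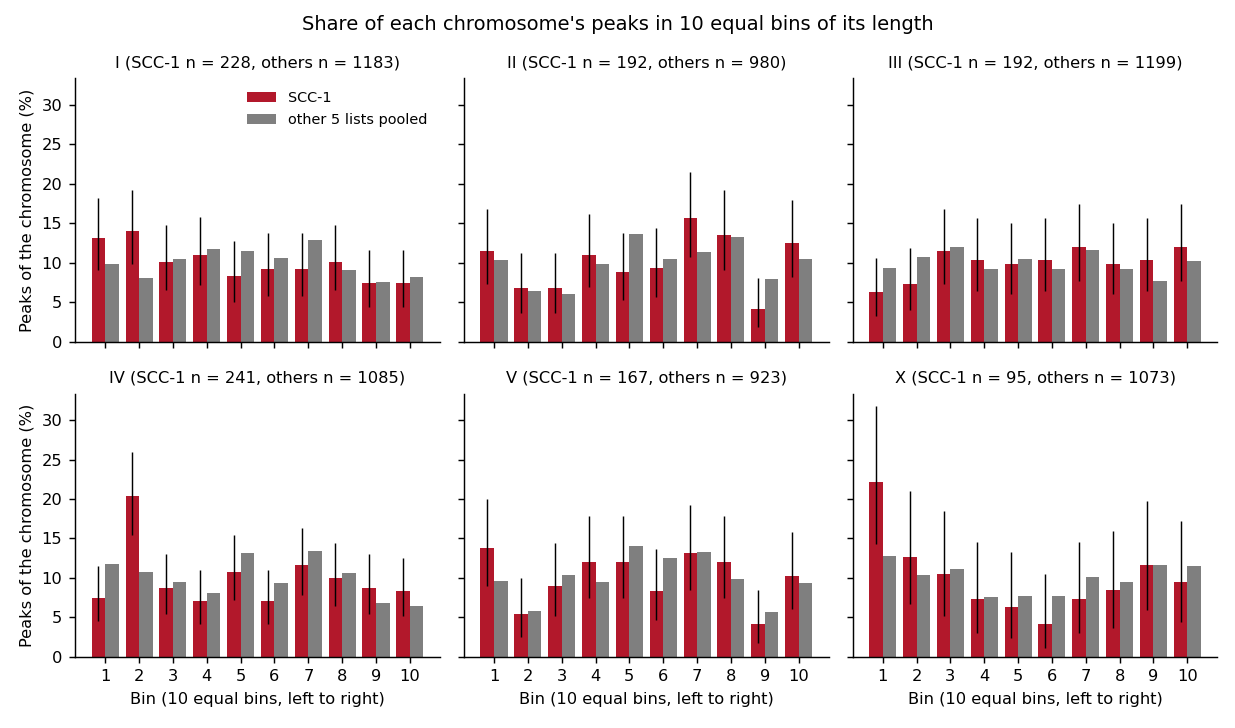
Share of the peaks of each chromosome (vertical axis, %) in each of 10 equal bins of its length (horizontal axis, left to right), for SCC-1 (red, with exact Clopper-Pearson 95% intervals) and for the other 5 lists pooled (gray). The tallest SCC-1 bars are bin 1 of X (22.1%) and bin 2 of IV (20.3%).

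The 1-Mb windows with the most SCC-1 peaks, in steps of 100 kb, differed between chromosomes in what else was bound there. On IV the window from 2100001 to 3100000 held 39 peaks, 2.83 times the mean density of that chromosome, and 30 of the 39 shared no base with a peak of another protein. The same runs of 13 and 7 peaks lay in this window, and 0 and 1 of their peaks had a partner. On II the window from 9600001 to 10600000 held 22 peaks, of which 7 were without a partner. The fullest windows of I (1600001 to 2600000) and III (4900001 to 5900000) had 25 peaks each, with 14 and 13 of them without a partner. On V (7700001 to 8700000) the fullest window had 17 peaks, 9 of them without a partner. The first Mb of X had 15 peaks, 7 of them without a partner, and 2.79 times the mean density of X. SCC-1 outnumbered each other protein in the windows on I and IV, the second of which held 31 SIN-3, 18 ZFP-1, 9 JMJD-2, 8 BLMP-1 and 2 TOP-2 peaks. ZFP-1, the longest list, was the most frequent protein in the fullest SCC-1 windows of III, V and X, with 36, 21 and 25 peaks. In consecutive 1-Mb windows SCC-1 numbers ran between 7 and 37 on IV, 8 and 23 on I, 6 and 21 on II, 3 and 23 on III, 2 and 14 on V and 0 and 15 on X, with medians of 12, 15, 13, 14, 7 and 5.

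Autosomes of C. elegans have gene-dense centers and repeat-rich arms that carry heterochromatin marks. SCC-1 was nearly even between them. Arms were taken as the outer 33% of the chromosome length at each end and the center as the rest. The arms held 671 of 1020 autosomal peaks (65.8%, interval 62.8% to 68.7%), against 62.9% of the pooled peaks of the other lists (p = 0.0825, Fisher's exact test). The share was higher for SCC-1 than for BLMP-1 (59.3%) and ZFP-1 (60.6%; adjusted p = 0.0137 for both, Fisher's exact test, adjusted over the 5 proteins). It was 0.07 percentage points from that of SIN-3 (65.7%, adjusted p = 1, Fisher's exact test). For JMJD-2 (63.6%, adjusted p = 0.469) and TOP-2 (70.6%, adjusted p = 0.188) the difference did not pass in Fisher's exact test. After merging of peaks less than 1 kb apart, adjusted p was 0.0525 for both BLMP-1 and ZFP-1. With arms of 25% of the length, SCC-1 passed against the pooled lists (4.29 percentage points, adjusted p = 0.0122, Fisher's exact test). On X, 75 of 95 SCC-1 peaks (78.9%, interval 69.4% to 86.6%) lay in the arms, against 73.0% for the other lists. That difference, tested only after the data had been seen, did not pass (p = 0.227, Fisher's exact test). The center of X had the lowest density of any arm or center, 3.39 per Mb with 20 peaks, and the left arm of I the highest, 18.9 per Mb with 95 peaks.

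Left and right arms were compared within each chromosome. Chromosome I carried 95 SCC-1 peaks in its left and 66 in its right arm, so that the left share was 59.0% (interval 51.0% to 66.7%). The left share of the other lists was 53.8%, and the difference did not pass (adjusted p = 0.511, Fisher's exact test, adjusted over the 6 chromosomes). Chromosome IV had 92 peaks on the left and 73 on the right, a left share of 55.8%, and X had 44 and 31, 58.7%. For V the numbers were 52 and 49, 51.5%. On II they were 57 and 67, a left share of 46.0%, and the other lists also had fewer peaks on the left there (42.8%). Of the 6 chromosomes, III had the largest difference from the other lists. It had 51 peaks on the left and 69 on the right, a left share of 42.5% (33.5% to 51.9%), against 53.7% for the other lists. The difference of -11.19 percentage points did not pass after adjustment (p = 0.0242, adjusted p = 0.145, Fisher's exact test). Without the peaks of the other lists that overlap SCC-1 it was -13.90 percentage points and passed (adjusted p = 0.0320, Fisher's exact test). That alternative takes positions shared with SCC-1 out of the other lists only, which can widen a difference by itself. No conclusion was drawn from it. For the remaining chromosomes adjusted p was between 0.511 and 1. Over the 5 autosomes, 347 peaks lay in left arms, 324 in right arms and 349 in centers.

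**Figure D2:**
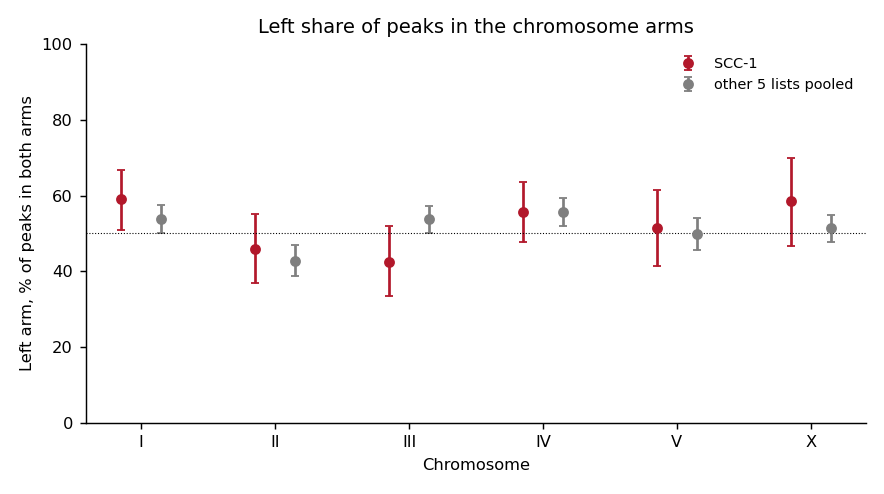
Share of the peaks of both arms that lay in the left arm (vertical axis, %) on each chromosome, for SCC-1 (red) and the other 5 lists pooled (gray), with exact Clopper-Pearson 95% intervals; the dotted line marks equal numbers. III, at 42.5% for SCC-1 and 53.7% for the others, shows the widest separation.

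The first and the last SCC-1 peaks lay at most 192.1 kb from the chromosome ends as taken here. Mean spacing of SCC-1 midpoints was between 66.2 kb on I and 186 kb on X, and closeness to the ends was not tested. The peak on II from 1 to 108 starts at the first base of the assembly, I begins with a peak from 3693 to 3953 and V with one from 8132 to 8371. The first peaks of X (59127 to 59393) and III (62713 to 62980) were 59.1 and 62.7 kb from the left end, and the first of IV (192126 to 192366) was 192.1 kb from it. At the right ends, where the chromosome was taken to end with the last peak of any list, the last SCC-1 peak was 12.3 kb from that point on III (13771158 to 13771390), 38.2 kb on I (15033978 to 15034210) and 43.6 kb on II (15232727 to 15232975). It was 58.1 kb away on V (20845599 to 20845853), 87.7 kb on IV (17380311 to 17380580) and 141.6 kb on X (17544362 to 17544594). Each of these last peaks except that of V had a partner in JMJD-2 or SIN-3. So did the first peaks of III, V and X, whereas those of I, II and IV had no partner. Over all SCC-1 peaks SIN-3 was shared at 42.9% and JMJD-2 at 26.0%, and a difference at the ends was not tested.

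Between these outermost peaks, stretches without SCC-1 were long and unevenly distributed. Of 1109 gaps between consecutive SCC-1 peaks, 131 (11.8%) were longer than 200 kb, and they covered 43.9 Mb or 43.8% of the genome. On X, 31 of 94 gaps were that long and took up 73.0% of the chromosome. Chromosome V had 35 such gaps of 166, over 61.1% of its length. They covered 36.8% of IV, 28.6% of II, 26.0% of I and 25.4% of III. Gaps over 500 kb numbered 15, with 9 on X, 4 on V, 1 on II and 1 on IV. I and III had none, and their longest gaps were 451.0 and 474.8 kb. The longest SCC-1 gap was 17.5 times the mean gap. In the other lists this ratio was 15.6 for SIN-3, 11.7 for BLMP-1, 11.4 for ZFP-1, 11.3 for TOP-2 and 8.75 for JMJD-2. These ratios pool chromosomes of unequal density. On no single chromosome was SCC-1 the highest, for example with 8.43 on X, against 11.9 for TOP-2 and 9.0 for ZFP-1, and 8.62 on V, against 10.3 for SIN-3 and 9.36 for BLMP-1. Of all gaps, 36.2% were over 200 kb for TOP-2, 19.5% for JMJD-2, 14.8% for BLMP-1, 4.45% for SIN-3 and 1.71% for ZFP-1, lists that also differ in peak number. Such gaps covered 85.95% of V for TOP-2, 74.8% for JMJD-2, 64.5% for BLMP-1, 39.2% for SIN-3 and 22.8% for ZFP-1. V was the least dense autosome in all 6 lists. On X the covered shares were 65.6%, 62.6%, 37.4%, 47.6% and 6.18% in the same order.

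The 10 longest gaps began with 1565 kb in the middle of X, from 9465941 to 11031292, which is 8.42 times the mean spacing on X. The next was 1080 kb in the right part of V, from 16538158 to 17618203. X also held gaps of 898.1 kb (8109835 to 9007901), 758.1 kb (3379383 to 4137502), 659.6 kb (14975511 to 15635097), 625.3 kb (16056649 to 16681918), 583.6 kb (12521288 to 13104910) and 544.2 kb (6296665 to 6840892). The remaining 2 were a second gap on V of 582.1 kb (17951624 to 18533678) and 1 of 574.7 kb near the right end of IV (15826760 to 16401478). These stretches were not devoid of other proteins. The longest gap contained 41 ZFP-1, 17 BLMP-1, 9 TOP-2, 7 JMJD-2 and 7 SIN-3 peaks, 51.8 per Mb in all. The longest gap of V contained 11 ZFP-1, 5 SIN-3, 4 BLMP-1, 2 JMJD-2 and 0 TOP-2 peaks, or 20.4 per Mb. The second gap on V had 18.9 per Mb. For comparison, the other lists together had 1073 peaks on the 17.7 Mb of X and 923 on the 20.9 Mb of V. These 3 gaps thus held fewer peaks of the other proteins per Mb than their chromosomes as a whole.

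Over all chromosomes together, JMJD-2 and SIN-3 were less dense within gaps over 200 kb than outside them, and TOP-2 was not. JMJD-2 had 4.19 peaks per Mb inside and 11.2 outside, and SIN-3 had 8.77 inside and 23.6 outside. Since a peak shared with SCC-1 is hardly ever counted inside a gap, the densities were also taken from peaks that share no base with SCC-1. JMJD-2 then had 4.17 per Mb inside (exact Poisson 95% interval 3.59 to 4.82) and 6.09 outside (5.46 to 6.77), and SIN-3 8.66 (7.81 to 9.58) and 15.2 (14.2 to 16.3). For TOP-2 the values were 4.81 (4.18 to 5.50) inside and 4.39 (3.86 to 4.97) outside, for BLMP-1 8.71 and 9.54 and for ZFP-1 22.6 and 23.2, with intervals that overlapped for each of these 3 proteins. On autosomes alone the intervals of BLMP-1 did not overlap, with 7.46 (6.53 to 8.48) inside and 9.51 (8.69 to 10.4) outside. On X, BLMP-1 had 11.7 unshared peaks per Mb inside gaps and 9.83 outside, and TOP-2 6.66 and 5.86. JMJD-2 had 5.35 (4.16 to 6.77) inside and 9.41 (6.86 to 12.6) outside on X, while the SIN-3 values of 5.27 (4.09 to 6.68) and 6.69 (4.58 to 9.45) had overlapping intervals. With gaps over 500 kb, the picture on autosomes was different. Unshared TOP-2 had 7 peaks inside these, 1.84 per Mb, against 4.28 per Mb outside, with intervals that did not overlap. ZFP-1 had 16.3 inside and 22.9 outside, also without overlap, whereas the JMJD-2 intervals overlapped (3.95 and 5.04). On X at this limit, TOP-2 had 7.04 inside and 6.09 outside, with overlapping intervals. No test was made of these densities, which are averages over stretches chosen by the absence of SCC-1.

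**Figure D3:**
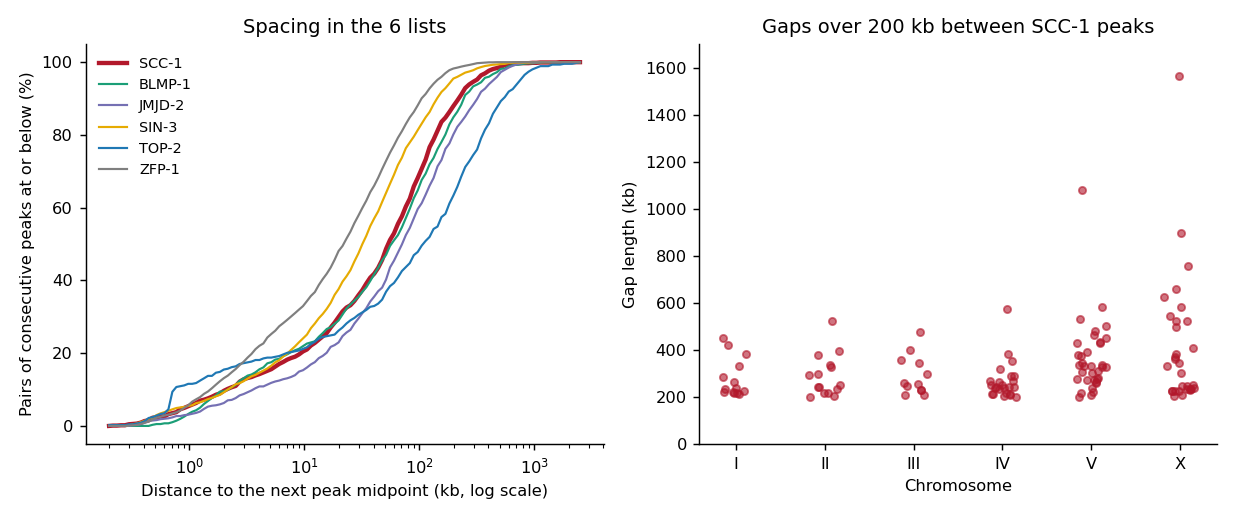
Left, share of pairs of consecutive peaks (vertical axis, %) whose midpoints were at or below a given distance (horizontal axis, kb, log scale), for SCC-1 (thick red line) and each other list. Right, length in kb of each of the 131 gaps over 200 kb between SCC-1 peaks, by chromosome; the highest point is the gap of 1565 kb on X, and X and V hold 13 of the 15 gaps over 500 kb.

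Spacing between consecutive SCC-1 midpoints had a median of 54.5 kb and a mean of 89.7 kb, with a coefficient of variation of 1.32. The median was 113.6 kb on X and 80.5 kb on V, against 52.6 kb on II, 47.0 kb on III, 45.2 kb on IV and 43.9 kb on I. Short distances were found beside the long ones. Of the 1109 distances, 60 (5.41%) were at most 1 kb and 230 (20.7%) at most 10 kb, the smallest being 207.5 bp. The share at most 10 kb was 12.8% on X, where 12 of 94 distances were that short, against 24.2% on I and 60 of 240 distances on IV. Among the lists, the share at most 10 kb was 22.3% for BLMP-1, 15.6% for JMJD-2, 24.3% for SIN-3 and 21.4% for TOP-2, and for ZFP-1 it was 820 of 2460 distances. The coefficient of variation was between 1.17 for JMJD-2 and 1.39 for SIN-3, so that SCC-1 fell within the range of the others on both.

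When peaks at most 10 kb apart were joined into runs, 725 SCC-1 peaks (65.0%) stood alone, 118 runs were pairs and 42 runs had 3 or more peaks, 154 peaks in all. These 154 were 13.8% of the list, against 16.6% for SIN-3, 16.5% for BLMP-1, 16.2% for TOP-2, 25.7% for ZFP-1 and 9.19% for JMJD-2, and the longest runs of SIN-3 (18 peaks) and ZFP-1 (14) had more peaks than that of SCC-1. The longest SCC-1 run was on IV from 2694959 to 2722675, with 13 peaks within 27.7 kb, and none of them shared a base with a peak of another protein. Its first peak lay at 2694959 to 2695181 and its last at 2722440 to 2722675, with steps between midpoints of 778 to 5680 bp and a median step of 1067 bp. Within its span there were 1 JMJD-2, 1 SIN-3 and 1 ZFP-1 peak, at places not covered by SCC-1. The next runs were 8 peaks on V (7913209 to 7924025), of which 2 had a partner, and 7 peaks on IV (2255727 to 2262038), of which 1 had. Runs of 5 peaks lay on I (11374328 to 11394551) and V (1254330 to 1258368), and in both the first peak alone had a partner, JMJD-2 on I and SIN-3 on V. The 2 runs on IV fell in bin 2 of that chromosome and in its densest window. Without the 3 longest runs, an alternative chosen after seeing the data, the excess of SCC-1 on IV was 3.49 percentage points and still passed (adjusted p = 0.0167, Fisher's exact test).

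**Figure D4:**
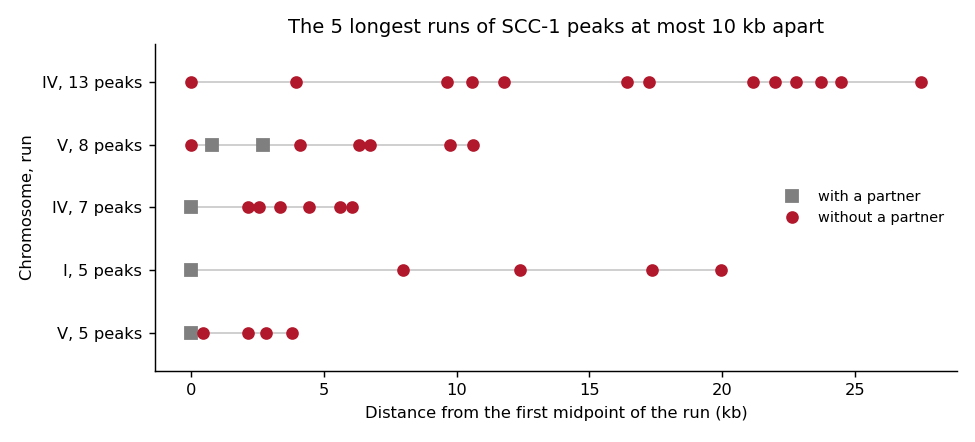
Position of each peak in the 5 longest runs of SCC-1 peaks, as distance from the first midpoint of the run (horizontal axis, kb), with 1 run per line and its chromosome and number of peaks at the left. Gray squares are peaks that share a base with a peak of another protein, red circles are peaks that do not; the top run on IV has 13 circles and no square.

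Of the 1115 SCC-1 peaks, 633 (56.8%, interval 53.8% to 59.7%) shared at least 1 bp with a peak of another protein, called a partner here, and 482 (43.2%) did not. One partner was found at 373 peaks, and 164 had 2, 80 had 3 and 16 had 4. The most frequent combination was SIN-3 alone (242 peaks), followed by JMJD-2 with SIN-3 (106), JMJD-2 alone (81), these 2 with ZFP-1 (54), ZFP-1 alone (40) and SIN-3 with ZFP-1 (31). BLMP-1 was the only partner at 8 peaks and TOP-2 at 2. Read from the other lists, the shares were different. SCC-1 peaks covered 35.5% of JMJD-2 peaks (interval 32.3% to 38.9%) and 27.9% of SIN-3 peaks (25.8% to 30.1%), but 6.81% of ZFP-1, 6.42% of BLMP-1 and 1.29% of TOP-2 peaks. Peaks without a partner made up 47.7% on IV, 46.7% on V, 46.1% on I, 42.2% on III, 41.1% on X and 64 of 192 peaks on II.

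Where peaks were shared, their midpoints were close. The median distance from an SCC-1 midpoint to that of the partner was 9 bp for JMJD-2 and 11 bp for SIN-3. It was 17.8 bp for ZFP-1, 21 bp for BLMP-1 and 32 bp for the 6 TOP-2 peaks. At 96.2% of shared JMJD-2 peaks and 82.2% of shared SIN-3 peaks the midpoints were at most 50 bp apart. Nearness was also counted for peaks that were not shared. Of the SCC-1 peaks that shared no base with SIN-3, 209 (32.8%) had a SIN-3 midpoint within 5 kb. The corresponding numbers were 185 (19.5%) for ZFP-1, the longer list, 101 (12.2%) for JMJD-2, 71 (6.75%) for BLMP-1 and 40 (3.61%) for TOP-2. Over all SCC-1 peaks the median distance to the nearest midpoint was 0.83 kb for SIN-3, 12.6 kb for ZFP-1, 18.5 kb for JMJD-2, 40.1 kb for BLMP-1 and 101.3 kb for TOP-2.

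A partner was found at 58.9% of the SCC-1 peaks on X (56 of 95, interval 48.4% to 68.9%) and at 56.6% of those on autosomes (577 of 1020, 53.5% to 59.6%), a difference that did not pass (adjusted p = 0.800, Fisher's exact test, adjusted over any partner and the 5 proteins). Of the single proteins, ZFP-1 and TOP-2 passed. A ZFP-1 peak was shared by 25 of 95 SCC-1 peaks on X (26.3%, interval 17.8% to 36.4%), against 143 of 1020 on autosomes (14.0%, 12.0% to 16.3%; adjusted p = 0.0152, Fisher's exact test). Read from ZFP-1, however, 5.42% of its 461 peaks on X and 7.13% of its 2005 autosomal peaks shared a base with SCC-1, and ZFP-1 itself had 26.1 peaks per Mb on X against 24.3 on autosomes. Without SCC-1 peaks that have 3 or more partners, the ZFP-1 difference was 3.20 percentage points and no longer passed (adjusted p = 0.611, Fisher's exact test). A ZFP-1 partner itself counts toward the 3, so this alternative takes out peaks by the trait compared and cannot decide the question. Of the SCC-1 peaks on X, 11 (11.6%) had JMJD-2, SIN-3 and ZFP-1 together, and 12 (12.6%) had SIN-3 alone. TOP-2 was shared by 3 of 95 peaks on X and 3 of 1020 on autosomes (adjusted p = 0.0298, Fisher's exact test). That call was lost when both peaks had to share 50% of their length (adjusted p = 0.121) or when peaks with 3 or more partners were left out (adjusted p = 0.611, Fisher's exact test). A TOP-2 partner likewise counts toward the 3. JMJD-2 was shared by 35.8% of the peaks on X and 25.1% on autosomes and did not pass (adjusted p = 0.0551, Fisher's exact test). Read from JMJD-2 the order was the other way, with 23.0% of its peaks on X and 38.3% of its autosomal peaks shared with SCC-1. Among SCC-1 peaks, SIN-3 (45.3% and 42.6%, adjusted p = 0.800) and BLMP-1 (6.32% and 5.59%, adjusted p = 0.815, Fisher's exact test) did not pass either.

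**Figure D5:**
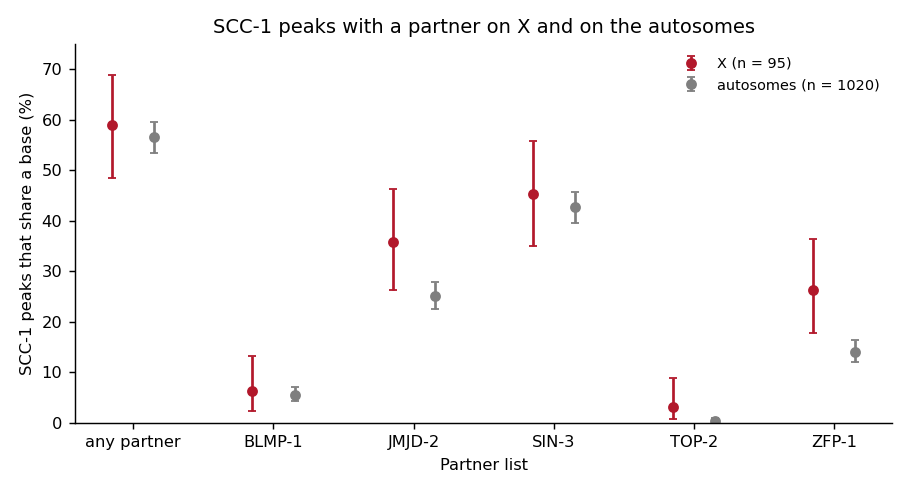
Share of SCC-1 peaks that share a base with a peak of any other list and of each list (vertical axis, %), on X (red, 95 peaks) and on the autosomes (gray, 1020 peaks), with exact Clopper-Pearson 95% intervals. The intervals for ZFP-1 (26.3% on X, 14.0% on autosomes) do not overlap, and those for any partner, BLMP-1 and SIN-3 largely coincide.

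On autosomes, no difference in partners between arms and centers passed. A partner was found at 56.0% of SCC-1 peaks in arms and 57.6% in centers (adjusted p = 0.770, Fisher's exact test), with 41.7% and 44.4% for SIN-3, 24.3% and 26.6% for JMJD-2, 13.6% and 14.9% for ZFP-1 and 5.51% and 5.73% for BLMP-1. No protein passed (adjusted p from 0.770 to 0.887, Fisher's exact test). The result depended on where the border was drawn. With arms of 25% of the length, peaks nearer the ends had a partner less often by 7.81 percentage points (adjusted p = 0.0322, Fisher's exact test), and the differences for JMJD-2 and SIN-3, -7.75 and -7.56 percentage points, passed as well. In left arms 178 of 347 peaks (51.3%) had a partner, against 198 of 324 (61.1%) in right arms, which did not pass after adjustment (p = 0.0127, adjusted p = 0.0762, Fisher's exact test). Against the main difference of -9.81 percentage points it was -12.80 with arms of 25% and passed (adjusted p = 0.0305, Fisher's exact test), whereas it was -6.98 without the 3 longest runs and -5.62 with 50% of both peaks shared (adjusted p = 0.486 and 0.729, Fisher's exact test). No single protein passed in the comparison of left and right arms (adjusted p from 0.552 to 1, Fisher's exact test).

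SCC-1 peaks with a partner had another SCC-1 peak close by less often than those without. Another SCC-1 midpoint lay within 10 kb of 193 of 633 peaks with a partner (30.5%, interval 26.9% to 34.2%), against 197 of 482 without (40.9%, 36.5% to 45.4%, p = 0.000381, Fisher's exact test). Closeness is mutual, so all peaks of a run count together and are not independent units in this test. At 1 kb the shares were 4.90% and 16.0%, and the median distance to the nearest SCC-1 peak was 26.5 kb with a partner and 16.6 kb without. With peaks closer than 1 kb joined into 1, the difference at 10 kb was -2.66 percentage points and did not pass (p = 0.352, Fisher's exact test). Without the 3 longest runs it was -7.48 percentage points and passed (p = 0.0110, Fisher's exact test). In the runs of 3 or more peaks, 50 of 154 peaks (32.5%, interval 25.1% to 40.5%) had a partner, against 143 of 236 peaks in pairs (60.6%, 54.1% to 66.9%) and 440 of 725 that stood alone (60.7%, 57.0% to 64.3%). Peaks in pairs and alone thus had nearly the same share, and the lower share was that of the runs of 3 or more, a difference that was not tested.

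At the 16 SCC-1 peaks with 4 partners, 15 combined BLMP-1, JMJD-2, SIN-3 and ZFP-1. They lay on I (8816445 to 8816676 and 9163398 to 9163631), II (10174385 to 10174638 and 10658758 to 10658995), III (3067996 to 3068224, 3867454 to 3867700 and 13462910 to 13463135), V (8606302 to 8606539), X (2242854 to 2243084 and 7068438 to 7068663) and IV, which had 5 of them (654814 to 655051, 1659150 to 1659382, 4390522 to 4390766, 4725503 to 4725718 and 9196272 to 9196494). The remaining peak, on X from 16681919 to 16682169, was shared with JMJD-2, SIN-3, TOP-2 and ZFP-1 but not BLMP-1. It closes the gap of 625.3 kb, and the nearest other SCC-1 peak was 247.7 kb away. Distances from these 16 peaks to the nearest SCC-1 peak were between 1.66 kb (IV, 9196272 to 9196494) and that value. No SCC-1 peak had all 5 of the other proteins.

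SCC-1 peaks were narrow and of nearly equal width, with a median of 235 bp (SD 30.8, range 77 to 464 bp). The spread of widths was smaller the more partners a peak had. The SD was 10.4 bp for the 16 peaks with 4 partners, 14.3 bp with 3, 19.2 bp with 2, 26.4 bp with 1 and 38.6 bp with none, while the median stayed between 233 and 237 bp. Both tails of the distribution held few peaks with a partner. Of 10 peaks over 350 bp 1 had a partner, and of 13 under 150 bp 4 had one, against 56.8% of all SCC-1 peaks. These small numbers were not tested, and a narrow peak has fewer bases to share. The widest peaks were on III (12001333 to 12001796, 464 bp), II (1500418 to 1500873, 456 bp) and IV (13861908 to 13862337, 430 bp), all without a partner. The narrowest were on I (1757031 to 1757107, 77 bp, shared with TOP-2) and on II (6185339 to 6185431 and 14878622 to 14878714, 93 bp each), the second of which was shared with SIN-3. Widths depend on the peak caller and its smoothing, and the lists called in the same way had similar medians, 234 bp for TOP-2, 235 bp for SIN-3, 251 bp for ZFP-1 and 246 bp for JMJD-2.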

How the data were processed

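Per the paper's methods, the authors called peaks per replicate with YAPC (MACS2 for BLMP-1) and combined replicates by IDR (irreproducible discovery rate). In the submitters' processing notes, BWA, MACS2 and ce10 stand for every sample, without versions. The deposited lists hold chromosome, start and end, with no count, score or depth, so precision beyond peak numbers could not be assessed. The methods also describe a filter for intervals bound by many factors of a larger collection. Whether the deposited lists come before or after it could not be told from them, and no such filter was applied here.

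Samples were assigned from their labels. Chromosome length was set by the rightmost peak among all lists, as a ce10 genome was not used here. For lack of a ce10 annotation, sites were not assigned to genes. A partner was a peak of another list sharing at least 1 bp. Gaps ran from the end of a peak to the start of the next, and runs joined midpoints at most 10 kb apart. Tests were two-sided Fisher's exact tests over peaks with Benjamini-Hochberg adjustment within each family, passed below 0.05, and intervals are exact at 95%. The comparison of the arms of X and the alternatives of merged gaps and of leaving out the 3 longest runs were added after seeing the data. Sites named by rule were the 10 longest gaps, the fullest 1-Mb window of each chromosome, peaks with 4 or more partners, the 5 longest runs, the first and last peaks and the 3 widest and narrowest peaks. The members and lists were chosen with earlier results of these data known. Alternatives were other reference sets, merged peaks, other borders, overlaps and distances. Procedures were tested on simulated data. The rate of false calls by Fisher's exact test was checked there on independent counts only, not on clustered or shared peaks like those of these lists. Tools were scipy 1.17.1, pandas 2.3.3, numpy 2.4.6 and matplotlib 3.10.9 under Python 3.11.15.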

Additional observations from a re-analysis of the deposited data

How the results depend on the processing

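Of 37 tests, 7 passed. Over 237 values under alternatives, 202 kept their direction and their side of the threshold, 14 passed only under the alternative, 6 no longer passed and 15 changed sign, none of which passed in either form. The number of gaps over 200 kb was 131 under its 3 alternatives, which could hardly change it, since no stretch at a chromosome end reached 200 kb and merging acts below 1 kb. The excess on IV and the deficit on X passed under every alternative run. Values are differences in percentage points with adjusted p from Fisher's exact test. With peaks less than 1 kb apart merged, the share in arms no longer passed against BLMP-1 (5.53, 0.0525) or ZFP-1 (4.48, 0.0525), nor did the neighbor difference (-2.66, 0.352). Without peaks with 3 or more partners, X against autosomes no longer passed for ZFP-1 (3.20, 0.611) and TOP-2 (1.05, 0.611), and left against right arms passed (-10.65, 0.0487). That alternative selects peaks by the partners that these differences count, so it cannot decide them. With 50% of both peaks shared, TOP-2 on X no longer passed (1.81, 0.121). Without overlapping peaks in the other lists, the left share of III passed (-13.90, 0.0320), but this alternative can widen a difference by itself. With arms of 25% of the length, the share in arms passed against the pooled lists (4.29, 0.0122) and TOP-2 (-8.15, 0.0151), as did arms against centers for any partner (-7.81, 0.0322), JMJD-2 (-7.75, 0.0288) and SIN-3 (-7.56, 0.0322), and left against right (-12.80, 0.0305). With arms of 20% these were 4.0 (0.0152), -7.57 (0.0229), -8.67 (0.0235), -6.77 (0.0353), -8.62 (0.0235) and -15.18 (0.0197). Changes of sign were, for arms against SIN-3 (0.0719), -0.443 without overlapping peaks, -0.0875 without the 3 longest runs and -0.204 with arms of 25%. The left share of IV (0.121) was -0.662 without overlapping peaks, -2.38 merged, -5.98 without the runs, -1.79 with arms of 25% and -0.945 with 20%. X against autosomes, without peaks with 3 or more partners, was -2.24 for any partner (2.38) and -2.75 for SIN-3 (2.62), and for BLMP-1 (0.728) -0.888 with 50% shared. Arms against centers was 0.689 for BLMP-1 (-0.217) with midpoints within 500 bp and 0.345 with 50% shared, and 1.01 for ZFP-1 (-1.34) without peaks with 3 or more partners. Left against right for TOP-2 (0.268) was then -0.0218. Left against right for any partner was between -5.62 and -15.18 over its alternatives, with adjusted p from 0.0197 to 0.729. The causes of these changes were not tested. No paired analysis was possible because the replicates were combined before deposit. For the same reason no replicate could be left out, and a stricter peak threshold could not be applied without scores.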

Other observations

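In the longest SCC-1 run, on IV from 2694959 to 2722675, 6 of the 12 steps between neighboring midpoints were of 778 to 926.5 bp. In the whole SCC-1 list 19 of 1109 pairs of consecutive peaks were 750 to 950 bp apart, and the 6 steps of this run are among them. The numbers were 41 of 2460 pairs for ZFP-1, 14 of 976 for BLMP-1, 9 of 1709 for SIN-3, 3 of 810 for JMJD-2 and 3 of 458 for TOP-2. The range of distances was chosen after the run had been seen, no test was made, and whether the sequence there is repeated was not analysed here.

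The 6 SCC-1 peaks shared with TOP-2 lay on I (1757031 to 1757107), III (11826897 to 11827101), IV (2397470 to 2397677) and X (180556 to 180743, 12518501 to 12518724 and 16681919 to 16682169). TOP-2 was the only partner at the peak on I, the narrowest of the SCC-1 list with 77 bp, and at that on X from 12518501. JMJD-2 was shared at the other 4, and 2 of the 3 on X were also shared with ZFP-1. They were singled out after their small number had been seen.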
